A study of Rattus norvegicus with 12 samples.

Results

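The smooth muscle of the uterine wall, the myometrium, contracts when myosin pulls on actin filaments, and its cells act together because gap junction channels pass ions and small molecules from cell to cell. Smooth muscle makes 2 actins of its own, encoded by Acta2 and Actg2, and the skeletal muscle actin gene Acta1 is known mainly from striated muscle. Estradiol is known to make the uterus grow and to raise its receptors for oxytocin, the hormone that drives labour contractions. The 10 genes described here are actins (Acta1, Acta2, Actg2), the smooth muscle myosin heavy chain (Myh11), proteins of the actin filament (Cnn1, Tagln), the intermediate filament protein desmin (Des), a brake on the calcium pump (Pln), the oxytocin receptor (Oxtr) and the gap junction protein connexin 43 (Gja1). They were chosen by symbol: each of the 10 had exactly 1 probe set annotated with its symbol alone, of 14506 genes with such a probe set.

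Ovaries had been removed from young adult female Lewis rats, so that little estrogen of their own remained, and all 4 groups shared that operation. For 3 days the rats received the vehicle DMSO, 17β-estradiol at 4 µg/kg per day (E2), 3-methylcholanthrene at 15 mg/kg per day (3-MC), or E2 and 3-MC at those doses (E2+3-MC), and the uterus was taken 24 h after the last dose. 3-MC is a polycyclic aromatic hydrocarbon that activates the aryl hydrocarbon receptor, a sensor of such compounds that can interfere with estrogen signalling. The comparisons ask how these genes respond to estradiol, whether 3-MC alone moves them, and whether 3-MC alters the estradiol response. Whole uteri of 3 rats per group were measured, 1 Affymetrix array per rat. RNA came from the whole tissue, so fewer cells of a type and less RNA per cell cannot be told apart in any result below.

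Values are the authors' intensities per probe set. Differences are on the scale of log2(intensity + 16), given ± SE, and a gene is said to have risen or fallen, or to be called, where limma's Benjamini-Hochberg adjusted p over 10154 genes was under 0.05. All 10 genes passed the filter on dim genes, with mean log2 levels from 7.14 (Oxtr) to 12.61 (Acta2) against the filter's limit of 6.44. The smooth muscle markers Acta2, Actg2, Myh11, Cnn1, Tagln and Des were all well above that limit in every group. Intensities of different probe sets are not compared with each other.

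Vehicle rat 1 stood apart from the other arrays. The interquartile range of its log2 values was 2.70, against 1.87 to 2.35 on the other 11 arrays, and it had the highest intensity of its group for 10 of the 10 genes (for 8 after quantile normalization). Its summed intensity of 6 adipocyte markers was 13368, while vehicle rats 2 and 3 had 2047 and 2764, and its sum of 2 nerve markers was 1590, where they had 281 and 249. The part of these differences in the results was not tested. Where leaving out this rat, or quantile normalization, which brings all arrays to the same distribution, changed the call of 1 of the 10 genes in the comparison of E2 with vehicle, both values are given.

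The promoters of Acta1 and Acta2 are shown because these actin genes separated most in their response to estradiol, and those of Gja1 and Oxtr because they carry the coupling and the hormone input of the muscle. Each is the stretch from 250 bases before to 50 bases after the start of 1 transcript in RefSeq's GRCr8 assembly, listed for 8 of the 10 genes (Myh11 and Tagln have no entry). For Acta1, Acta2, Des and Cnn1 that start is the end of the gene's annotated span, while for Gja1, Oxtr, Pln and Actg2 it lies 74, 1224, 5982 and 10340 bases inside the span, which for Oxtr, Pln and Actg2 puts the end of the span outside the stretch. Capitals mark a strict CArG box, CC followed by 6 bases that are A or T and then GG (the site of serum response factor, a regulator of muscle actin genes), the motif GGTCA or its reverse TGACC, either arm of the estrogen receptor's palindromic site, and the AP-1 motif TGANTCA. The Acta1 stretch is chr19:68784145-68784444 on the minus strand, that of Acta2 chr1:241172454-241172753 on the minus strand, that of Gja1 chr20:36302314-36302613 on the plus strand and that of Oxtr chr4:147170450-147170749 on the minus strand.
Acta1: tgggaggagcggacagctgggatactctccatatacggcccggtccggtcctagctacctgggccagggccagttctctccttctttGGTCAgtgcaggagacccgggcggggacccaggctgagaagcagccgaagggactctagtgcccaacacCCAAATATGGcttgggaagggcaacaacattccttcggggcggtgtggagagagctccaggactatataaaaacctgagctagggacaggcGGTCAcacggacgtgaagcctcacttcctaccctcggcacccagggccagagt
Acta2: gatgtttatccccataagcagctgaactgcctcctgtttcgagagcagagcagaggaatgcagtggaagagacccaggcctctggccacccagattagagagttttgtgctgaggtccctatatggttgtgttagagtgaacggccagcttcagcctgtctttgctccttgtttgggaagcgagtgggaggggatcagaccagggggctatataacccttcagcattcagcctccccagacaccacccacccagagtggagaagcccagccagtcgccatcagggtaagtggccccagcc
Gja1: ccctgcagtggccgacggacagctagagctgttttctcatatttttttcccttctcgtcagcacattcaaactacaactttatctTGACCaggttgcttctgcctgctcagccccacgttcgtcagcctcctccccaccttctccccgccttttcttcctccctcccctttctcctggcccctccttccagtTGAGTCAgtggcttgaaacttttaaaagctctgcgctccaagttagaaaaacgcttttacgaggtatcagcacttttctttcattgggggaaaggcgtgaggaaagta
Oxtr: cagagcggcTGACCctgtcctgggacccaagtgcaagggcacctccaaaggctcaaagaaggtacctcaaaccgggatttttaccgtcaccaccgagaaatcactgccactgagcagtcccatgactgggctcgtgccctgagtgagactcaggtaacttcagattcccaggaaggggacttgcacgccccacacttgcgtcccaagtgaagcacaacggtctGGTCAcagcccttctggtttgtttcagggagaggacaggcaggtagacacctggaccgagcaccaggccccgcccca

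Among the 8 member promoters, the strict CArG box occurred in 1, that of Acta1, where its first base lies at -94 from the start, with a TATAAA motif at -29. The strict form was found in 548 of 33469 RefSeq promoters of the same length (1.64%), searched on both strands like every motif here. With 1 of the 6 inner bases a G or C, such a box occurred at 2 further places in the Acta1 stretch and at 2 in that of Acta2, in none of the other 6, and in 8.10% of all promoters. Both actin stretches thus hold this looser form, a search added after the data were seen. The full estrogen response element, GGTCA followed after 3 free bases by its reverse TGACC, was in none of the 8 stretches and in 9 of all promoters (0.0269%). A single GGTCA arm was in 4 of the 8 (Acta1, Cnn1, Oxtr and Gja1), close to the 40.5% of all promoters that hold these 5 letters. TGANTCA was in 2 of the 8 (Actg2 and Gja1, at -58 in Gja1), against 7.33% of all promoters, and the aryl hydrocarbon receptor's core motif GCGTG in 3 of the 8 (Cnn1, Oxtr and Gja1), against 29.7%. These counts describe letters in short windows and show no binding.

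Estradiol raised Acta1, Actg2, Des and Gja1 and lowered Pln in ovariectomized rats without 3-MC. Acta1 rose 4.58-fold, Gja1 2.38-fold, Des 2.18-fold and Actg2 2.11-fold, while Pln fell to 0.475 of its vehicle level. Of the smooth muscle markers named above, Actg2 and Des were thus called. Acta2 (0.07 ± 0.22), Myh11 (0.15 ± 0.19), Cnn1 (0.28 ± 0.22) and Tagln (0.45 ± 0.22) were not. In this comparison 4 of the 10 were called higher and 1 lower, 5 in all, where 18.1% of all genes tested were called (8.7% higher and 9.44% lower). After quantile normalization 7 of the 10 were called, against 38.4% of all genes. The 3 E2 rats did not overlap with the 3 vehicle rats for 4 of the 10 genes (3 higher, 1 lower), and for 27.2% of all genes tested (10.1% higher, 17.1% lower). The median difference was 0.60 over the 10 genes and -0.11 over all genes tested.

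Acta1 encodes skeletal muscle alpha-actin, and it changed most among the 10. Acta1 intensities were 760, 486 and 347 in the vehicle rats, 2372, 2280 and 2460 with E2, 519, 424 and 387 with 3-MC, and 1566, 1176 and 2198 with E2+3-MC. Every rat given estradiol was above every rat not given it, and the E2 rats were also all above the E2+3-MC rats. The E2 minus vehicle difference was 2.20 ± 0.26 (adjusted p = 1.56e-05), the 117th highest of 10154 genes. The difference stayed called in each of the 12 fits that left out a rat, from 1.93 to 2.48.

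Markers of skeletal muscle did not rise with Acta1. Of 11 measured skeletal muscle markers 6 lay under the dim limit, among them the fast myosin heavy chains Myh1, Myh2 and Myh4 and the calcium pump Atp2a1. Their summed intensity ran from 2101 to 3135 in the vehicle rats and from 1679 to 1812 with E2. It was not lower in every case where Acta1 was higher: within the vehicle group both were highest in rat 1 and lowest in rat 3, and the E2+3-MC rats, with less Acta1 than the E2 rats, had sums of 1286 to 1616. Of the 5 markers tested, 0 rose and 1 fell between vehicle and E2, where 18.1% of all genes were called. Between the 6 rats with estradiol and the 6 without, 0 rose and 3 fell, where 25.6% of all genes were called (10.6% lower). The cardiac actin gene Actc1 differed by an uncalled 0.07 between vehicle and E2, but the cardiac troponin gene Tnnt2 rose. It was the 1 called higher of 4 cardiac markers tested, where 8.7% of all genes were called higher. The summed intensity of 7 measured cardiac markers ran from 743 to 816 with vehicle and from 1285 to 1554 with E2. Actin genes share much of their coding sequence, and how far the Acta1 probe set takes up RNA of other actins was not tested, since the probe sequences were not used here.

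Actg2, the gamma-actin of visceral smooth muscle, rose with a smaller fold. Actg2 intensities were 5536, 2851 and 2898 with vehicle, 8150, 7277 and 7334 with E2, 3267, 2818 and 4057 with 3-MC, and 6432, 6344 and 8742 with E2+3-MC. All 6 rats given estradiol lay above all 6 others. With E2 it rose by 1.08 ± 0.25 (adjusted p = 0.00559), which stayed called in all 12 fits that left out a rat.

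Acta2 encodes the alpha-actin of smooth muscle, in vessel walls as well as in the myometrium. Acta2 intensities were 9152, 5220 and 5589 with vehicle, 7197, 6438 and 6680 with E2, 5460, 5155 and 6030 with 3-MC, and 6368, 5259 and 7520 with E2+3-MC. The 4 groups overlapped, with the highest value in vehicle rat 1. The 95% interval of the E2 minus vehicle difference ran from -0.39 to 0.53, so a rise or fall within those bounds is compatible with these values. Its difference stayed uncalled under each alternative tried, between -0.08 and 0.32 when a rat was left out.

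Ratios of 2 probe sets on the same array put each rat against itself and do not depend on the overall scale of the array. The log2 ratio of Acta1 to Acta2 was 1.88 higher (3.67-fold) in the 6 rats with estradiol than in the 6 without, and that of Actg2 to Acta2 0.95 higher (1.93-fold). Acta1 also moved against Actg2, by 0.93 (1.90-fold), and Des against Myh11, by 0.96 (1.94-fold). The other 2 ratios computed moved less, Gja1 to Oxtr by 0.36 (exact p = 0.09, or 0.13 with exact p = 0.395 after quantile normalization) and Cnn1 to Tagln by -0.12 (exact p = 0.01, adjusted over the 6 ratios 0.012). For each of the first 4, all 6 rats with estradiol lay above all 6 without. An exact two-sided permutation test within the 3-MC strata gave p = 0.005 for each, the smallest that its 400 rearrangements allow (adjusted over the 6 ratios computed, 0.0075), and the same p after quantile normalization. These pairs were chosen with their values known, so the p describes the separation and is not independent evidence of it.

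**Figure D1:**
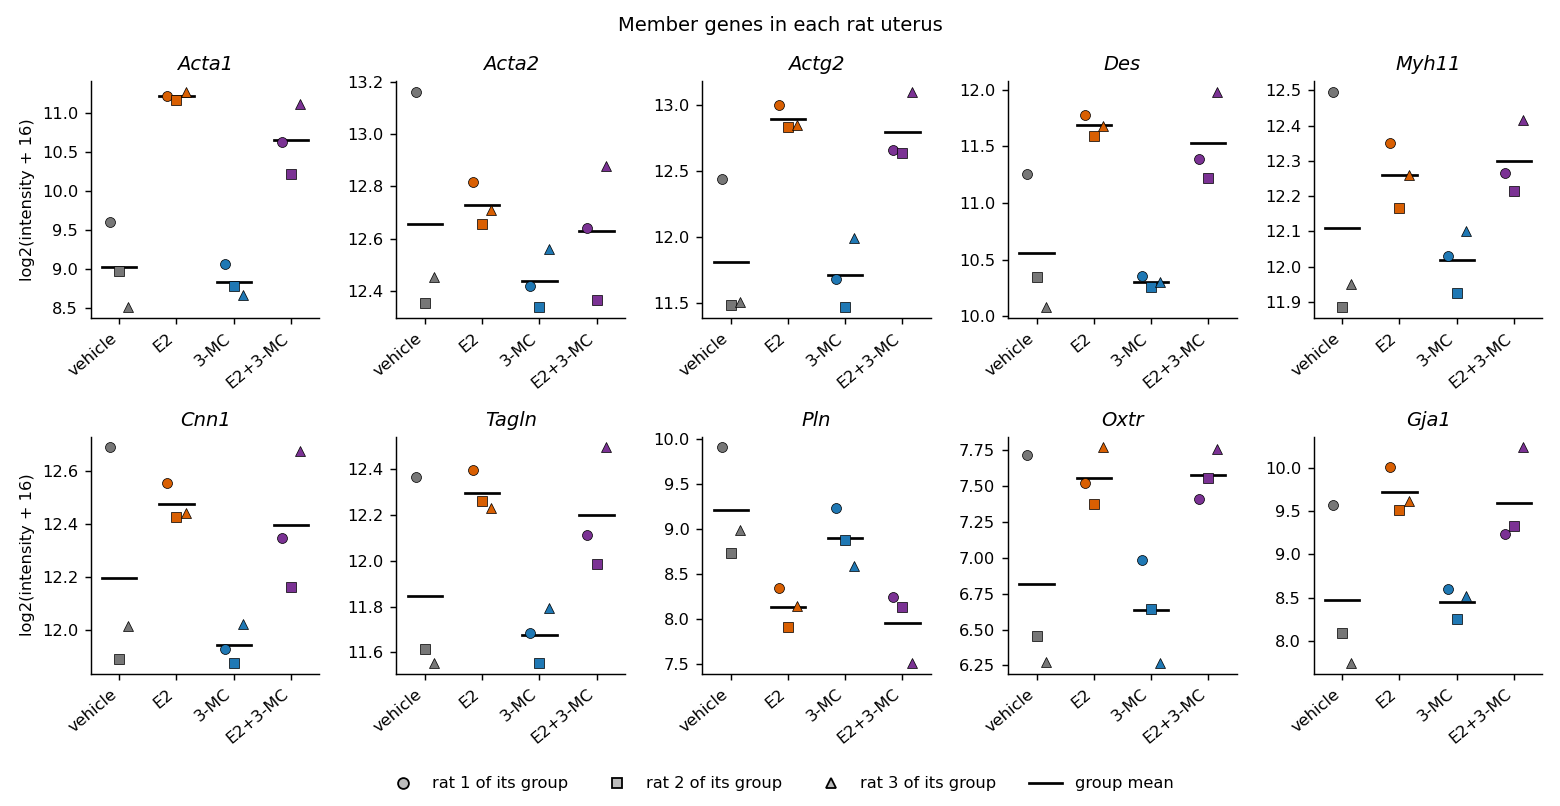
Each panel plots log2(intensity + 16) of 1 gene in every rat, by group, with the rat number as the symbol and the group mean as a line; panels have their own axes. The E2 and E2+3-MC rats lie above the others for Acta1 and Actg2 and below them for Pln, while vehicle rat 1 is the highest vehicle rat in all 10 panels.

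**Figure D2:**
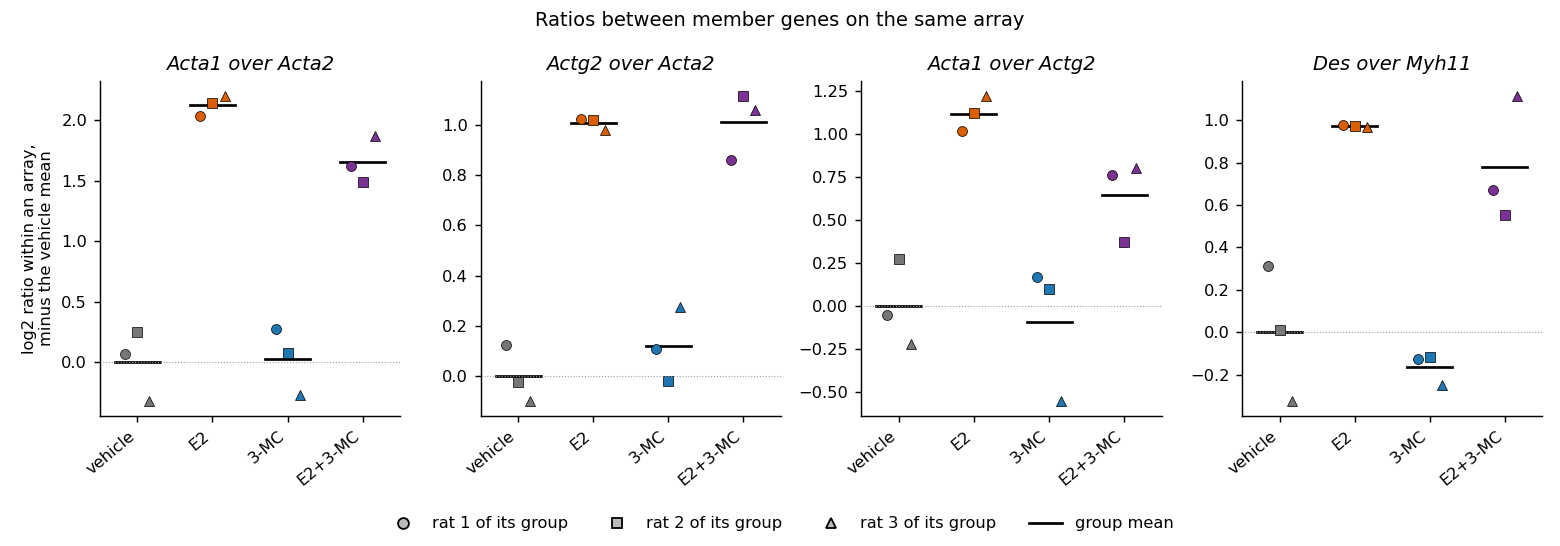
Log2 ratios of gene pairs on the same array, minus the mean of the 3 vehicle rats, with 1 symbol per rat and a line at the group mean. In all 4 panels the 6 rats given estradiol lie above the 6 others, and for Acta1 over Acta2 the E2 and E2+3-MC rats also separate from each other.

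Desmin, which ties the contractile units of a muscle cell together, followed Actg2. Des intensities were 2435, 1286 and 1067 with vehicle, 3502, 3072 and 3265 with E2, 1292, 1212 and 1247 with 3-MC, and 2667, 2367 and 4026 with E2+3-MC. The E2 rats lay above all vehicle rats, whereas E2+3-MC rat 2 lay just under vehicle rat 1. Des rose by 1.12 ± 0.26 with E2 (adjusted p = 0.0067), which was called in all 12 fits that left out a rat. The profiles of Des and Actg2 over the 12 quantile-normalized arrays differed by a root mean square of 0.15 on the log2 scale.

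Myh11, Cnn1 and Tagln moved less. Myh11, the myosin heavy chain of smooth muscle, ranged from 3766 to 5759 with vehicle, 4580 to 5204 with E2, 3876 to 4379 with 3-MC and 4736 to 5449 with E2+3-MC. Cnn1, the actin-binding protein calponin, ranged from 3773 to 6592, 5485 to 6000, 3739 to 4137 and 4571 to 6533 in the same order of groups. Tagln, the actin-bundling protein transgelin, ranged from 2992 to 5266, 4797 to 5383, 2991 to 3530 and 4046 to 5760. For each of the 3 genes vehicle rat 1 was the only vehicle rat above the lowest E2 rat. The E2 minus vehicle difference was 0.45 ± 0.22 for Tagln (adjusted p = 0.170) and 0.28 ± 0.22 for Cnn1 (adjusted p = 0.401). Tagln was called after quantile normalization (0.43, adjusted p = 0.00506), and also when vehicle rat 1 was left out (0.71, adjusted p = 0.00302). Cnn1 was called without that rat (0.52, adjusted p = 0.0222) but not after quantile normalization (0.25, adjusted p = 0.0536), and Myh11 in neither case (0.34 and 0.14).

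Pln encodes phospholamban, which slows the calcium pump of the sarcoplasmic reticulum, and it was the one gene of the 10 that fell. Pln intensities were 944, 410 and 491 with vehicle, 310, 225 and 267 with E2, 586, 454 and 370 with 3-MC, and 287, 264 and 166 with E2+3-MC. Every rat with estradiol was below every rat without it. Between vehicle and E2 the log2 difference was -1.07 ± 0.28 (adjusted p = 0.0138). Without vehicle rat 1 it was -0.72 and still called, and it lost its call without E2 rat 2 (adjusted p = 0.0709) or E2 rat 3 (adjusted p = 0.0526). The E2 arrays also carried lower summed levels of endothelial markers, from 1477 to 1639 against 2229 to 4378 with vehicle. Of these 6 markers 5 fell, where 18.1% of all genes were called (9.44% lower). Pericyte and vascular muscle markers summed to 2646 to 3426 with E2 and 3211 to 5979 with vehicle, ranges that overlap. Of these 7 markers 1 was called lower and 0 higher (3 and 0 after quantile normalization, where 38.4% of all genes were called). On the deposited scale the pericyte count was close to the shares of all genes called. After quantile normalization 1928 of 10154 genes were called higher and 1973 lower, a smaller share lower than among these 7 markers. The part of vessel cells in the fall of Pln was not tested.

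The oxytocin receptor gene Oxtr was the dimmest of the 10. Oxtr intensities were 194, 71.8 and 61.4 with vehicle, 168, 150 and 202 with E2, 111, 84.0 and 61.0 with 3-MC, and 154, 172 and 201 with E2+3-MC. Vehicle rat 1 lay among the rats given estradiol, and the other 5 rats without estradiol lay below all 6 with it. The E2 minus vehicle difference of 0.74 ± 0.30 was not called (adjusted p = 0.0979). Quantile normalization gave a called 0.93 (adjusted p = 0.0131), and leaving out vehicle rat 1 a called 1.19 (adjusted p = 6.59e-05).

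Gja1 encodes connexin 43, the main gap junction protein of the myometrium, which stromal cells of the uterus also make. Gja1 intensities were 748, 256 and 198 with vehicle, 1020, 717 and 771 with E2, 370, 289 and 350 with 3-MC, and 585, 627 and 1194 with E2+3-MC. Vehicle rat 1 again overlapped with the rats given estradiol, and the other 5 rats without it did not. The E2 minus vehicle difference was 1.25 ± 0.36 (adjusted p = 0.0247), or 1.80 without vehicle rat 1. Its call was lost in the fits without vehicle rat 2, vehicle rat 3 or any 1 of the E2 rats, with adjusted p from 0.0528 to 0.0939. The summed level of 6 stromal markers ran from 5288 to 11615 with vehicle and from 7127 to 10975 with E2. Of the 6, 2 rose and 1 fell, where 18.1% of all genes were called (8.7% higher and 9.44% lower).

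**Figure D3:**
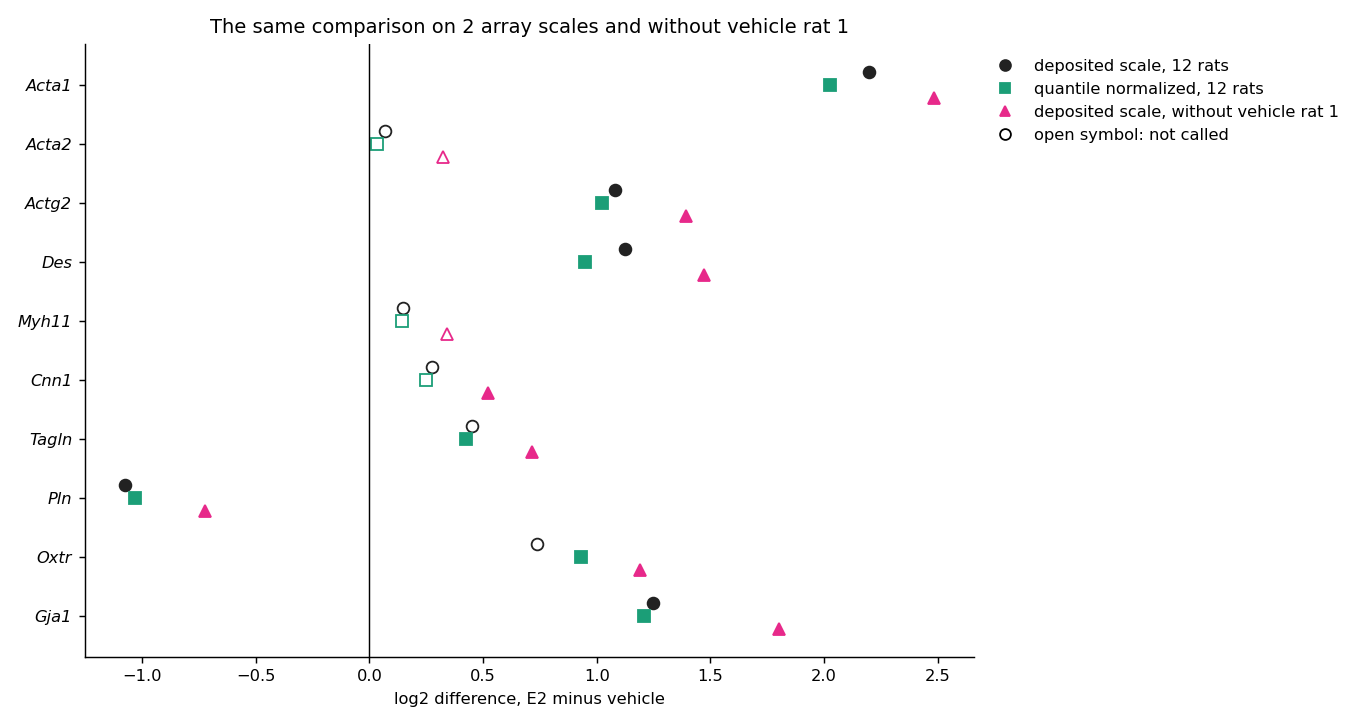
Log2 differences between E2 and vehicle for the 10 genes on the deposited scale, after quantile normalization, and on the deposited scale without vehicle rat 1, with filled symbols for called genes. Leaving out that rat moves every gene to the right, from 1.25 to 1.80 for Gja1 and from -1.07 to -0.72 for Pln.

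In rats that also received 3-MC, estradiol again raised Acta1, Des and Actg2 and lowered Pln. Between E2+3-MC and 3-MC, Acta1 rose by 1.82 ± 0.26 (adjusted p = 1.99e-04), Des by 1.22 ± 0.26 (adjusted p = 0.00637) and Actg2 by 1.08 ± 0.25 (adjusted p = 0.00951), and Pln fell by 0.94 ± 0.28 (adjusted p = 0.0489). These were 4 called genes of the 10 (3 higher, 1 lower), against 8.21% of all genes tested (6.82% higher, 1.39% lower). The comparison shares no rat with that of E2 and vehicle, although both use the same estimate of the spread. Gja1 (1.15 ± 0.36, adjusted p = 0.0653) and Oxtr (0.94 ± 0.30, adjusted p = 0.0659) were not called, although the 3 rats of each group did not overlap for either gene, and both were called after quantile normalization (0.94 and 0.95). All 10 genes but Acta2 had groups that did not overlap, 8 higher and 1 lower with estradiol, where 25.7% and 11.6% of all genes did so. The call of Pln was lost in 9 of the 12 fits that left out a rat, with adjusted p up to 0.299. Those of Actg2 and Des were lost without E2+3-MC rat 3 (adjusted p = 0.0702 and 0.0526), and that of Actg2 also without 3-MC rat 2 (adjusted p = 0.0706). Acta2 differed by 0.19 ± 0.22, a sign that turned after quantile normalization (-0.06).

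**Figure D4:**
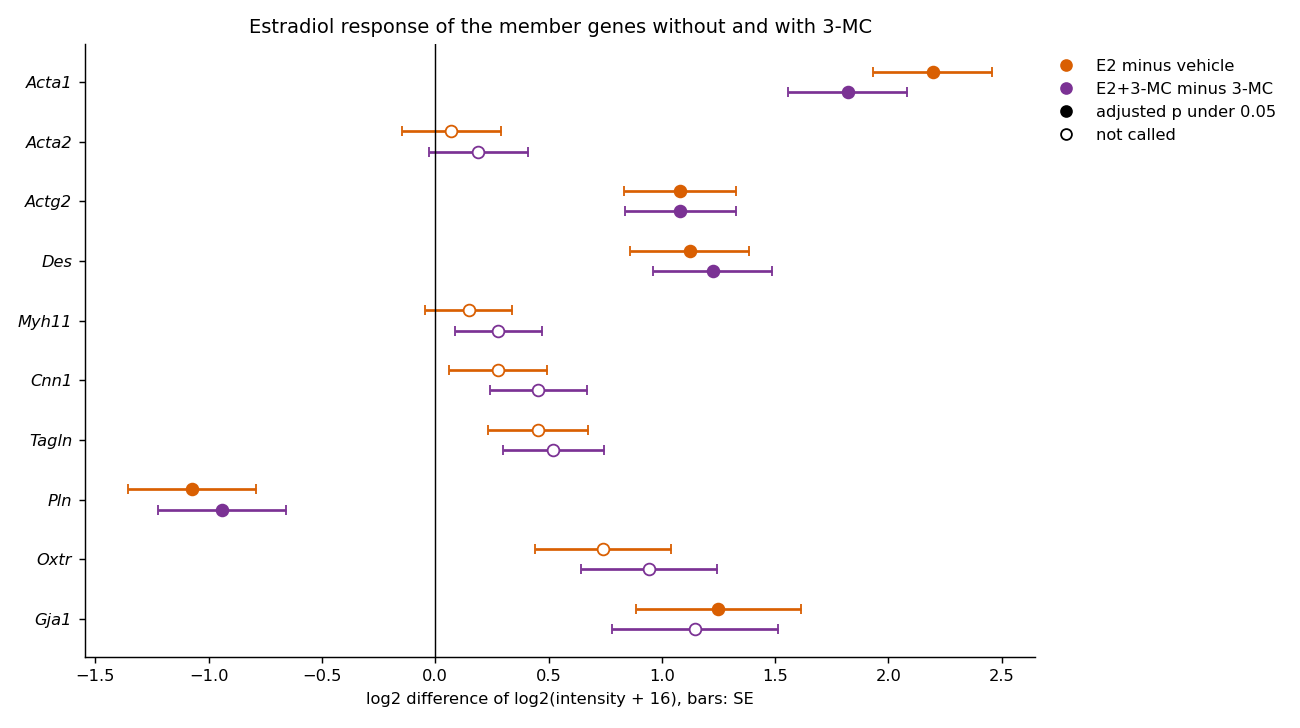
Log2 differences of each gene for E2 minus vehicle and for E2+3-MC minus 3-MC, with bars of 1 SE and filled points where the adjusted p was under 0.05. Both responses lie near 2 for Acta1 (2.20 and 1.82), near 1 for Actg2 and Des, near -1 for Pln and near 0 for Acta2.

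Over both pairs of groups, 6 rats with estradiol were set against 6 without. This estradiol main effect was called for 7 of the 10 genes (6 higher, 1 lower), against 25.6% of all genes tested (15% higher, 10.6% lower), and for 8 of 10 after quantile normalization, against 48.1%. Acta1 rose by 2.01 ± 0.19, Gja1 by 1.20 ± 0.26 (adjusted p = 0.00232), Des by 1.17 ± 0.19, Actg2 by 1.08 ± 0.17 and Oxtr by 0.84 ± 0.21 (adjusted p = 0.00736), and Pln fell by 1.01 ± 0.20 (adjusted p = 0.00122). Each of these 6 calls held in every fit that left out a rat. For Acta1, Actg2 and Pln all 6 rats with estradiol lay on one side of all 6 without, 2 genes higher and 1 lower, as did 5.91% and 5.57% of all genes (11.5% together). Tagln rose by 0.49 ± 0.16 (adjusted p = 0.0300), a call kept in 3 of the 12 such fits. Cnn1 (0.37 ± 0.15, adjusted p = 0.0895), Myh11 (0.21 ± 0.14, adjusted p = 0.269) and Acta2 (0.13 ± 0.15, adjusted p = 0.578) were not called. Cnn1 was called after quantile normalization (0.24, adjusted p = 0.011), and without vehicle rat 1 Cnn1 (0.49) and Myh11 (0.31) were called too.

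Rats given both compounds were also set against vehicle, a comparison that shares its vehicle rats with that of E2. Acta1 rose by 1.63, Actg2 by 0.98 (adjusted p = 0.0173) and Des by 0.97 (adjusted p = 0.0295), and Pln fell by 1.25 (adjusted p = 0.00915), which makes 3 higher and 1 lower of the 10 genes, against 7.84% of all genes tested (6.06% higher, 1.78% lower). Gja1 (1.13, adjusted p = 0.0715) and Oxtr (0.76, adjusted p = 0.161) were not called. After quantile normalization 7 of the 10 were called, against 26.1% of all genes. Acta1 kept its call in all 12 fits that left out a rat, Pln in 11 (not without E2+3-MC rat 3), Actg2 in 9 and Des in 8. The calls of Actg2 and Des were lost without vehicle rat 2, vehicle rat 3 or E2+3-MC rat 3, and that of Des also without E2+3-MC rat 1.

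3-MC alone moved none of the 10 genes past the threshold. In limma 0 of the 10 were called between 3-MC and vehicle (adjusted p = 1.00 for each), 0 had an unadjusted p under 0.05, and 0% of all genes tested were called (82 genes at an unadjusted p under 0.05). The differences ran from -0.31 (Pln) to -0.02 (Gja1), all negative on the deposited scale. After quantile normalization 4 of the 10 were positive, and without vehicle rat 1 all were positive except Cnn1 (-0.01), so they had no settled sign. The 95% intervals were wide, from -0.78 to 0.75 for Gja1 and from -0.75 to 0.36 for Acta1.

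Adding 3-MC to estradiol left 0 of the 10 genes called (0% of all genes tested), with 1 of the 10 and 937 of all genes (9.23%) at an unadjusted p under 0.05. That gene was Acta1, lower with E2+3-MC than with E2 by 0.57 on the log2 scale (-0.57 ± 0.26, 0.675-fold, adjusted p = 0.539, unadjusted p = 0.0455). Its 3 rats with both compounds lay under all 3 E2 rats, and 1.17% of all genes did so. The difference was -0.57 after quantile normalization too, and from -0.80 to -0.35 when a rat was left out, uncalled each time. The other 9 genes differed by -0.18 (Pln) to 0.04 (Myh11), where the median of all genes was 0.15 on the deposited scale and -0.01 after quantile normalization. The 95% interval was -0.61 to 0.42 for Actg2 and -0.89 to 0.65 for Gja1. No effect of 3-MC, or an effect within those bounds, is compatible with these values.

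Whether 3-MC changed the estradiol response was tested as an interaction, the E2+3-MC minus E2 difference minus the 3-MC minus vehicle difference. None of the 10 genes was called by limma (adjusted p of at least 0.977), 0 of 10 had an unadjusted p under 0.05, and 0% of all genes were called, with 298 at an unadjusted p under 0.05. For Acta1 the interaction was -0.38 ± 0.37, with a 95% interval from -1.16 to 0.41. After quantile normalization it was -0.49 ± 0.22 (adjusted p = 0.864), and Acta1 was then the 1 gene of the 10 with an unadjusted p under 0.05. On the deposited scale the other 9 ran from -0.10 to 0.20, below or near the 0.19 that was the median of all genes.

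The rats of a group differed in how often they were highest or lowest. E2+3-MC rat 3 was the highest of its group for 9 genes and the lowest for Pln, and E2 rat 2 the lowest of its group for 9 (for 6 after quantile normalization). In the 3-MC group rat 1 was the highest for 5 genes and rat 3 for the other 5, while rat 2 was the lowest for 7. The genes were also expressed relative to the mean log2 level of 21 other contractile genes on the same array, with the vehicle mean set to 0. Of those 21 genes 5 rose and 0 fell in the estradiol main effect, where 25.6% of all genes were called. Whether their mean follows the amount of smooth muscle RNA was not tested. On that scale the E2 rats stood at 2.06 ± 0.10 (SD, n = 3) for Acta1, 1.11 ± 0.15 for Gja1, 0.98 ± 0.02 for Des and 0.94 ± 0.04 for Actg2. Oxtr stood at 0.60 ± 0.20, Tagln at 0.31 ± 0.06 and Cnn1 at 0.14 ± 0.05, while Myh11 (0.01 ± 0.03), Acta2 (-0.07 ± 0.03) and Pln (-1.21 ± 0.11) were at or under the vehicle mean. The E2+3-MC rats stood at 1.47 ± 0.26 for Acta1 and -1.40 ± 0.56 for Pln. The vehicle rats themselves scattered by 0.05 (Tagln) to 0.56 (Gja1).

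Genes with the most similar profiles were found by the smallest root mean square difference over the 12 quantile-normalized arrays among 10154 genes, as a description. Cnn1 and Tagln were the closest pair among the 10, at 0.08, followed by Myh11 and Cnn1 at 0.12. Genes that vary little lie close together by this measure. The SD over the 12 arrays was 0.09 for Myh11, 0.14 for Cnn1 and 0.20 for Tagln, beside 0.97 for Acta1. Acta1 was nearest to the integrin gene Itga2 (0.12), the adhesion gene Alcam (0.18) and the actin-monomer binder Twf1 (0.19). Actg2 was nearest to Rars1, Plk2 and Mfsd1 (0.08 to 0.10) and Des to Kiaa0040, Efr3a and Ncstn (0.10 to 0.11). Tagln was nearest to the cytoplasmic actin gene Actb, to Gak and to the other cytoplasmic actin gene Actg1, each at 0.05. Pln was nearest to the proton pump gene Atp12a, to Bmp7 and to the sodium channel gene Scn7a (0.19 to 0.21). Oxtr was nearest to the protease gene Prss8 (0.14), H6pd and Plod1, and Gja1 to A2m (0.15), Ctsb and Tank.

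Among other genes of the contractile apparatus, none of those called moved as far as Acta1, Actg2 or Des in the estradiol main effect. Of 21 measured genes besides the 10, 5 rose and 0 fell there, a share close to the 25.6% of all genes. Fhl1, a LIM protein of muscle, rose by 0.90 ± 0.18, Vcl, which anchors actin at the membrane, by 0.87 ± 0.17, and the myosin light chain gene Myl9 by 0.67 ± 0.15. The median of the 21 was 0.12, against -0.02 for all genes, and it turned to -0.11 after quantile normalization, with 7 higher and 6 lower. Between E2 and vehicle 2 of the 21 rose (Fhl1 and Vcl) and 0 fell, calls that were lost without vehicle rat 3 or E2 rat 3 for both genes. After quantile normalization that comparison called 6 of the 21 higher and 4 lower. Between E2+3-MC and vehicle Fhl1 rose by 1.00, beside 0.98 for Actg2 and 0.97 for Des.

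The counts of the next 5 lists are read against the same 25.6% of all genes (15% higher, 10.6% lower), or 48.1% after quantile normalization. Of 15 calcium-handling genes tested, 1 rose and 2 fell in the main effect (2 and 4 after quantile normalization). The ryanodine receptor gene Ryr2 rose by 0.97 ± 0.16. The large-conductance potassium channel gene Kcnma1, which damps contraction, fell by 0.67 ± 0.16, and the IP3 receptor gene Itpr1 fell by 0.45 ± 0.15, a call lost in 8 of the 12 fits that left out a rat. Of 12 agonists and receptors 3 rose and 3 fell (3 and 5). The prostaglandin E receptor gene Ptger3 fell by 1.57 ± 0.19 and Ptgs1, a cyclooxygenase, by 1.01 ± 0.19, while the oxytocin gene Oxt rose by 1.08 ± 0.25.

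Of 5 other gap junction genes tested 1 rose and 1 fell (1 and 3 after quantile normalization). Gjb2, which encodes connexin 26, a connexin of uterine epithelium, had a mean intensity of 39.7 (36.0 to 42.6) with vehicle, 1828 (1748 to 1957) with E2, 37.4 (35.5 to 40.7) with 3-MC and 1604 (1230 to 1891) with both. It rose by 4.98 ± 0.13, beside a summed level of 8 epithelial markers that ran from 3379 to 7201 with vehicle and from 13383 to 15727 with E2. The part of the epithelium in the rise of Gjb2 was not tested. Tjp1, a scaffold protein that binds connexin 43, fell by 0.83 ± 0.16.

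Of 14 signalling genes of contraction and relaxation 3 rose and 3 fell (3 and 6 after quantile normalization). Gucy1a1, a subunit of the nitric oxide receptor that relaxes smooth muscle, fell by 1.58 ± 0.20. Rgs4, which shortens G protein signals, rose by 0.99 ± 0.20 and Irag1, a target of cGMP-dependent kinase, by 0.89 ± 0.14. Of 5 transcription regulators of smooth muscle tested, Klf4 rose by 1.37 ± 0.21 and Gata6 fell by 0.78 ± 0.14 (1 higher and 3 lower after quantile normalization). On the deposited scale Srf and its coactivator Myocd, which act on CArG boxes, were not called (-0.09 and -0.15). At least 1 of them was among the 3 genes called lower after quantile normalization. With 3-MC alone no gene of these 6 lists was called.

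**Figure D5:**
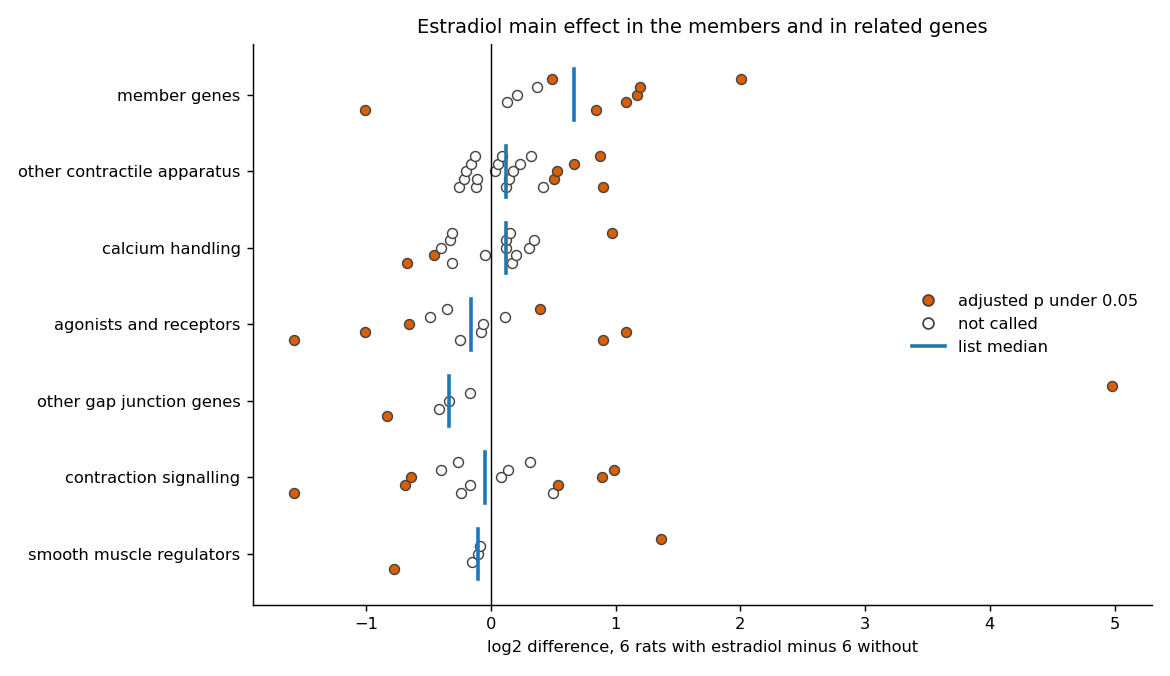
Estradiol main effect as a log2 difference, 6 rats with estradiol minus 6 without, for the 10 genes and 6 related gene lists, with filled points for called genes and a line at each list's median. The 10 genes have a median of 0.66, the other contractile genes one of 0.12, and Gjb2 stands at 4.98.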

How the data were processed

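Per the labels' protocols, total RNA from whole uteri was turned into biotin-labelled cRNA for 1 Affymetrix array per rat. Each deposited value is a linear intensity of 1 probe set, which the authors computed with Affymetrix Expression Console and PLIER per the submitters' processing notes. No version of either, and no normalization between arrays, is given in the sources used here. Genes were named from the platform annotation: 15310 of 29214 probe sets have 1 symbol, 323 several and 13581 none. One probe set per gene was kept (highest mean), which left 14506 genes. Values were transformed to log2(intensity + 16), and the dimmest 30% of genes by mean were dropped, so 10154 were tested. A limma fit (3.58.1 in R 4.3.3; lmFit and eBayes, 1 mean per group, 8 residual and 8.92 prior degrees of freedom) gave two-sided p-values, adjusted by Benjamini-Hochberg over all genes tested. The labels call the samples separate rats. The added 16 shrinks the differences of dim genes. Precision is set by the 12 arrays, with a median SE of 0.22 for a difference.

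The members, gene lists and tests were chosen with earlier results of these data known. All 10 members are named whatever their result. From each of the 6 other lists, up to 3 called genes with the largest change in a comparison are named, or 1 by value. Marker lists are given by counts and sums, and for each member called at least once the 3 nearest profiles are named. Srf, Myocd and Tnnt2 are named outside the rule, picked once their values were known. Alternatives were quantile normalization, median centring, offsets of 1 and 64, no filter, eBayes with trend and robust options, rat number as a block, 2 groups only, the mean of probe sets and each rat left out; quantile normalization without vehicle rat 1 was added after seeing the data. Promoters came from RefSeq's GRCr8 table.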

Additional observations from a re-analysis of the deposited data

How the results depend on the processing

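Of 1520 values of the 10 genes under the alternatives, 1437 kept their side of the threshold, 41 lost a call and 42 gained one. Of the called values 0 changed sign, while 91 of 1087 uncalled values did. The number of the 10 genes called between E2 and vehicle was 5, and 3 to 8 when a rat was left out; it was 8 after quantile normalization without vehicle rat 1. Between E2+3-MC and vehicle it was 4, and 7 after quantile normalization (with or without that rat), 1 with only the 2 groups fitted and 1 to 7 when a rat was left out. Between E2+3-MC and 3-MC it was 4, and 7 after quantile normalization without vehicle rat 1, 8 with only the 2 groups fitted and 1 to 8 when a rat was left out. The estradiol main effect called 7, and 6 to 9 when a rat was left out; the other 3 comparisons called 0 under each alternative run. The cause of these differences was not tested. Over all genes, E2 minus vehicle called 1842, against 3901 after quantile normalization, 3541 without vehicle rat 1, 1151 without E2 rat 2, 986 without E2 rat 3, 961 with only the 2 groups and 4677 after quantile normalization without vehicle rat 1. Median centring moved its split from 883 higher and 959 lower to 1535 and 801. E2+3-MC minus E2 called 0 genes, against 144 with only the 2 groups and 117 without vehicle rat 1. The rat numbers were not taken to pair the samples, since 8 of 18 correlations between same-numbered rats were above 0.1 (-0.27 to 0.24). As a hint from the data, 0 of 9 such pairs with a vehicle rat and 8 of 9 among the other groups correlated best with their own number. With rat number as a replicate block the 10 genes gave 5 calls between E2 and vehicle, and 2545 genes were called, while Gja1 and Oxtr gained a call between E2+3-MC and 3-MC (adjusted p = 0.0467 and 0.0438). Oxtr, at a mean log2 level of 7.14, is the nearest of the 10 to the dim limit of 6.44.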

Other observations

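Among the striated muscle genes used as markers, Tnnt2, the cardiac form of troponin T, stood out, and was singled out after its values were seen. Its mean intensity was 306 (223 to 370) with vehicle, 954 (829 to 1109) with E2, 275 (233 to 306) with 3-MC and 588 (462 to 686) with E2+3-MC. The rats given estradiol lay above all others, as did 5.91% of all genes. Those given both compounds lay below those given E2, as for Acta1 and 1.17% of all genes. That Tnnt2 difference of -0.69 ± 0.22 was not called by limma (adjusted p = 0.488). Of the 3 other cardiac markers tested (Actc1, Myh6 and Myl7) 0 were called between vehicle and E2, where 18.1% of all genes were called. The mean of Actc1 was 114 with vehicle and 118 with E2.

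Macrophage markers summed to 500 to 1440 with vehicle and 1027 to 1704 with E2, ranges that overlap, with 1 of 4 tested genes called higher, where 18.1% of all genes were called. Of 5 adipocyte markers tested 4 fell between vehicle and E2, although their sums overlapped at 2047 to 13368 and 2362 to 2536, and 3-MC rats ranged from 664 to 5174.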
